A study of Mus musculus with 4 samples.

Results

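Pcyt1a encodes the alpha form of CTP:phosphocholine cytidylyl transferase, the enzyme that makes CDP-choline. It was followed here together with 8 other genes of phospholipid synthesis: Pcyt1b, Pcyt2, Chka, Chkb, Chpt1, Cept1, Etnk1 and Pemt. Of these, Pcyt2 and Etnk1 serve the parallel ethanolamine branch, Cept1 serves both branches, and Pemt makes phosphatidylcholine by methylation. The 9 genes were picked by symbol from a table of 25050 genes, and all 9 were present and abundant enough to be tested. Pcyt1a was picked because it had been called higher in the only comparison of the study. The other 8 were picked because their products act in these branches of phospholipid synthesis, with their values known. The Pcyt1a values below are therefore a description of why it was chosen.

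RNA was sequenced from HT-22, an immortalised mouse hippocampal line, in 2 libraries of cells overexpressing Nsmce1 and 2 libraries of wild type cells, all labelled passage 21 to 24. Nsmce1 encodes a RING-type protein of the SMC5/6 chromosome maintenance complex. The design text describes the overexpressing cells as carrying an inducible Nsmce1 and the controls as uninduced, while the sample labels call the controls wild type. The inducing agent, its dose and the number of clones are not given in the sources used here, nor do the labels say that a group's libraries are separate cultures. The p-values below therefore reflect library-to-library spread, which may be technical.

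Depth, as whole reads recovered from the values, was 32516117 and 44602989 in the overexpressing libraries, against 25787452 and 31010351 in the wild type libraries. Values are given as normalised reads, the read count of a gene scaled by 1 factor per library, as the authors deposited them on a log2 scale. Nsmce1 itself, the check of the labels, had 17851 and 16525 normalised reads in the overexpressing libraries, against 1108 and 1206 in the wild type libraries. Of 12 markers of mature neurons, 7 were listed in the table and 4 were tested. Syn1, a synaptic vesicle gene, had 1024 to 1219 normalised reads over the 4 libraries and Tubb3, a neuronal tubulin, 446 to 622, while the tested Syp and Camk2a had 6.29 to 17 and 30.5 to 108, and Slc17a7, Nefm and Prox1 stayed between 0 and 5.27. Of the 6 astrocyte markers, 4 were listed and 2 tested, and these lay in opposite directions: Slc1a3 had 4537 and 4245 normalised reads in the overexpressing libraries, against 3302 and 2956 in the wild type libraries, and Aldh1l1 had 14.0 and 12.4 against 57.8 and 65.3. Their part in the results below was not tested. All 6 fibroblast and mesenchymal markers were tested, and their sum was 332914 and 290444 in the overexpressing libraries, against 364698 and 317966 in the wild type libraries.

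Phosphatidylcholine is the main phospholipid of animal membranes, and most cells build it by the CDP-choline route. Choline kinase adds a phosphate to choline, a cytidylyl transferase couples phosphocholine with CTP to form CDP-choline, and a phosphotransferase joins the activated choline to diacylglycerol. The cytidylyl transferase step is generally rate-limiting, and its alpha form is switched on when it binds membranes poor in phosphatidylcholine. A parallel route of the same 3 kinds of enzyme builds phosphatidylethanolamine, and neurons draw on both to extend their membranes.

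Pcyt1a (ENSMUSG00000005615, chromosome 16) was the 1 gene of the 9 that was called, and it was higher. It had 6393 and 6489 normalised reads in the overexpressing libraries, against 2392 and 2226 in the wild type libraries. The 2 overexpressing libraries lay close together and far above both wild type libraries. The means were 6441 ± 67.7 in overexpressing cells and 2309 ± 117 in wild type cells (SD, n = 2 each), which rested on 6393 and 8889 whole reads against 1902 and 2114. The difference was 2.79-fold, with limits of 2.44 and 3.19 (log2 fold change 1.48, SE 0.0785). In limma, a linear model over all 15540 tested genes with Benjamini-Hochberg adjustment, its adjusted p was 0.00377, and the next smallest among the 9 genes was 0.624. The call did not stand in every setting: the adjusted p of limma was 0.113 without a mean-variance trend, 0.0717 without wild type replicate 1 and 0.0710 without wild type replicate 2.

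**Figure D1:**
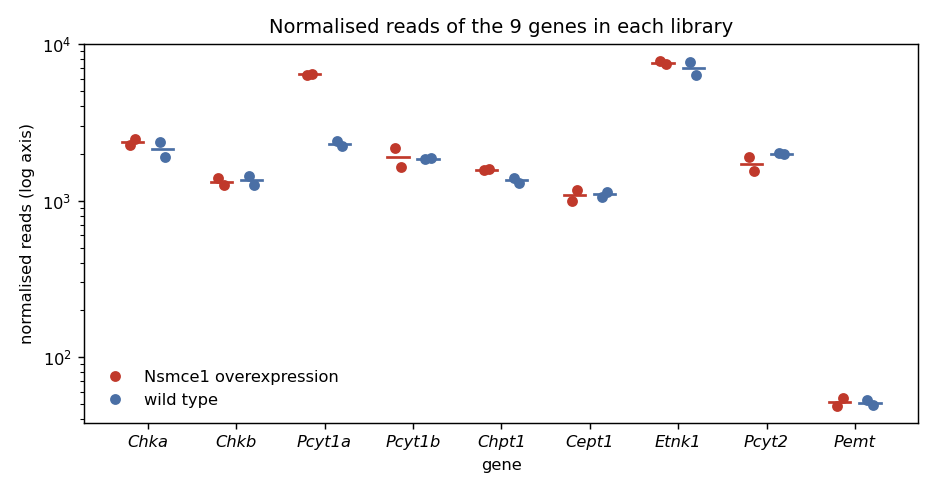
Normalised reads (log axis) of the 9 genes in the 4 libraries, with overexpressing libraries in red to the left of wild type libraries in blue. Points are libraries and bars are group means. Pcyt1a lies at 6393 and 6489 in overexpressing cells and at 2392 and 2226 in wild type cells, while the points of the other genes lie close together.

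In rank, Pcyt1a stood at or above 93.9% of the tested genes in each overexpressing library, against 78.2% and 76.6% in the wild type libraries. Among the 6650 tested genes with a mean of at least 1000 normalised reads, its rise was number 4 in size, and among all tested genes it was number 116. Over all tested genes, 16 were called higher (0.103%) and 14 lower (0.0901%), together 0.193%, so 1 called gene among 9 that were picked around a called gene is no result about the 9. In RNA from a whole culture, more Pcyt1a RNA per cell cannot be told apart from more cells that express it.

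The sequence windows around the starts of the 2 choline cytidylyl transferase genes are shown because the 2 forms catalyse the same reaction and had different values in the overexpressing cells. Each is 300 bases, 5′ to 3′ on the gene's own strand, from RefSeq on GRCm38.p6, with 250 bases before the annotated start and 50 after it. The capitals mark GC boxes (GGGCGG) and CCAAT boxes on either strand. The Pcyt1a window is chr16:32430671-32430970 (plus strand), the first of 3 windows listed for that gene, each of which overlaps the next. The Pcyt1b windows, at its 2 listed starts, are chrX:93654613-93654912 and chrX:93674862-93675161 (plus strand).
Pcyt1a: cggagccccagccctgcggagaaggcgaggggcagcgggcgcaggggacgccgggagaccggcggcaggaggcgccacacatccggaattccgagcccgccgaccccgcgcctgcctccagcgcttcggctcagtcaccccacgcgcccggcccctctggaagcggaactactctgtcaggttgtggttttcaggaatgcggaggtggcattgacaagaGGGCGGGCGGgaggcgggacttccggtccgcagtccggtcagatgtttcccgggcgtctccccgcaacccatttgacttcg
Pcyt1b start 1: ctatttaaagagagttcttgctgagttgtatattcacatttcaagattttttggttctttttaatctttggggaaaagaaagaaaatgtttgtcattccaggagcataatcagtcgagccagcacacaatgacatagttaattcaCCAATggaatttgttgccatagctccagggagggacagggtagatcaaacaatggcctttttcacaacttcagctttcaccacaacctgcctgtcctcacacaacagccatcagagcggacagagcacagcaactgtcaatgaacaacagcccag
Pcyt1b start 2: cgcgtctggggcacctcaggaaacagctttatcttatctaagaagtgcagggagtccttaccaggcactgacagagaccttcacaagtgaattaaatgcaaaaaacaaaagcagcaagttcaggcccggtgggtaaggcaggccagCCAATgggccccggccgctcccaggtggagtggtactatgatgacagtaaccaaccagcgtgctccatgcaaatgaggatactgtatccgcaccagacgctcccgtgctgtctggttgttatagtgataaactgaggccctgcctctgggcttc

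The first Pcyt1a window held 69.7% G and C and 33 CG dinucleotides, against 42.0% and 2 in the first Pcyt1b window and 53.3% and 9 in the second. The second Pcyt1a window held 65.7% and 29, and the third 63.3% and 18, so the first was the highest of the 3. The median over 32851 windows of this length was 52.7% G and C. GGGCGG occurred at 2 overlapping places in the first Pcyt1a window, at 2 in its second, which shares those bases, and at 0 in the third, and 35.7% of all windows held it. It was at 0 places in both Pcyt1b windows, each of which held 1 CCAAT box, a motif found in 37.4% of windows. The E-box CACGTG was in none of these windows of the 2 genes, and 7.15% of all windows held it. The TATA box, spelled TATAAA, was in none of them either, and 13.6% of all windows held it. Both strands were searched for each motif. RefSeq windows were at hand for 8 of the 9 genes, 14 in all. GGGCGG also occurred at 5 places in the window of Chpt1, at 3 in those of Chka and Etnk1, at 1 and 3 in the first and second windows of Cept1 and at 1 in that of Chkb, all genes that were not called. A match is a string of letters and was not tested as a binding site.

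The second choline cytidylyl transferase gene, Pcyt1b (chromosome X), a form enriched in brain and gonads in mice, had 2176 and 1649 normalised reads in the overexpressing libraries, against 1843 and 1865 in the wild type libraries. The wild type values lay between the overexpressing ones, and the log2 fold change was 0.03 (limits -0.31 and 0.37, limma adjusted p = 0.977). The overexpressing libraries fell on either side of the wild type pair. Leaving out overexpression replicate 2 gave a log2 fold change of 0.23, and leaving out overexpression replicate 1 gave -0.17. Within a library and without regard to gene length, Pcyt1a reads were 2.94 and 3.93 times those of Pcyt1b in the overexpressing libraries, against 1.30 and 1.19 times in the wild type libraries. Per kilobase of merged annotated exons, the ratios were 2.12 and 2.84 in the overexpressing libraries, against 0.938 and 0.863 in the wild type libraries. Per kilobase of the longest annotated transcript, the wild type means were 482 for Pcyt1a and 379 for Pcyt1b. The wild type order of the 2 genes thus depends on the length used. The log2 ratio of reads averaged 1.77 ± 0.298 in overexpressing cells and 0.32 ± 0.0850 in wild type cells (SD, n = 2 each), a difference of 1.45. An exact two-sided permutation test of 2 against 2 cannot go below p = 0.33, and the ratio contains the value for which Pcyt1a was chosen, so it was not tested.

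The third cytidylyl transferase gene, Pcyt2 (chromosome 11), serves the ethanolamine branch by making CDP-ethanolamine. It had 1894 and 1545 normalised reads in the overexpressing libraries, against 2003 and 1995 in the wild type libraries. Both overexpressing libraries lay below both wild type libraries, though the first by little, and the log2 fold change was -0.22 (SE 0.117, limits -0.51 and 0.06, limma adjusted p = 0.700). The difference rested mainly on overexpression replicate 2, without which it was -0.078. Of all tested genes, 18.3% had both overexpressing libraries below both wild type libraries, so this separation is common in the table.

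**Figure D2:**
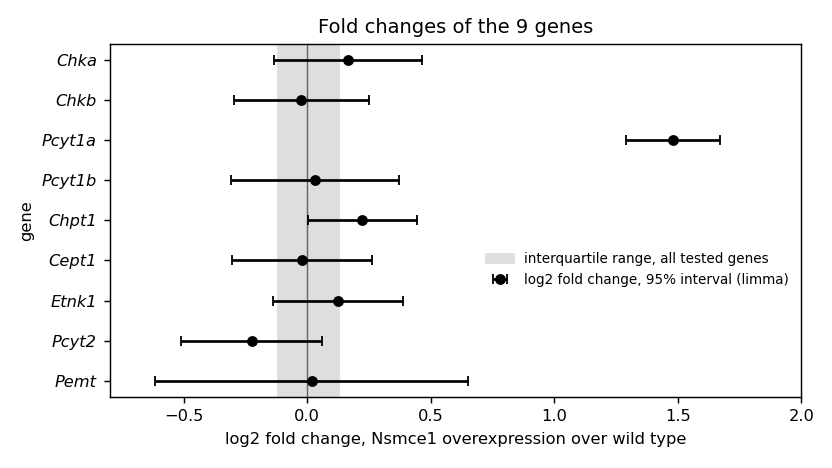
Log2 fold changes of overexpressing over wild type cells for the 9 genes, with 95% intervals from limma. The grey band is the interquartile range of all tested genes, from -0.12 to 0.13. The interval of Pcyt1a runs from 1.29 to 1.67, and those of the other genes reach 0 or nearly so, with Chpt1 starting at 0.0034.

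The choline kinases carry out the first step. Chka (chromosome 19), the alpha kinase, had 2279 and 2483 normalised reads in the overexpressing libraries, against 2359 and 1905 in the wild type libraries. The groups overlapped, and the lowest value was that of wild type replicate 2. Its log2 fold change was 0.17 (SE 0.123, limma adjusted p = 0.774), and it was 0.32 without wild type replicate 1 and 0.012 without wild type replicate 2. Chkb (chromosome 15), the beta kinase, whose loss causes a muscular dystrophy in mice, had 1391 and 1257 normalised reads in the overexpressing libraries, against 1442 and 1253 in the wild type libraries. These 4 values interleaved, and the log2 fold change was -0.02 (SE 0.112, limma adjusted p = 0.978). Without strand information, reads of Chkb cannot be told apart from those of C730034F03Rik over 320 shared exon bases, a gene that had 93.0 and 53.3 normalised reads in overexpressing libraries against 74.2 and 49.5 in wild type libraries.

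The last step is shared between Chpt1, the cholinephosphotransferase, and Cept1, which accepts CDP-choline and CDP-ethanolamine alike. Chpt1 (chromosome 10) had 1567 and 1591 normalised reads in the overexpressing libraries, against 1403 and 1304 in the wild type libraries. Both overexpressing libraries lay above both wild type libraries, as they did for 20.8% of all tested genes. The log2 fold change was 0.22 (SE 0.0901, unadjusted p = 0.0475), and the limma adjusted p of 0.624 did not pass. On chromosome 10 the median over 752 tested genes was 0.14, and 29.8% of them lay above Chpt1. With the median of each chromosome removed, Chpt1 stood at 0.083 (limma adjusted p = 0.879). Cept1 (chromosome 3) had 995 and 1170 normalised reads in the overexpressing libraries, against 1059 and 1133 in the wild type libraries. The overexpressing values enclosed the wild type ones, with a log2 fold change of -0.02 (SE 0.116, limma adjusted p = 0.981).

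Etnk1 (chromosome 6), the ethanolamine kinase, was the most abundant of the 9 genes in reads. It had 7782 and 7424 normalised reads in the overexpressing libraries, against 7690 and 6311 in the wild type libraries, with a log2 fold change of 0.13 (SE 0.108, limma adjusted p = 0.808). The groups overlapped, and wild type replicate 2 gave the lowest value here too. Pemt (chromosome 11), which methylates phosphatidylethanolamine to phosphatidylcholine and is known as an enzyme of liver, was the least abundant. It had 49.0 and 54.7 normalised reads in the overexpressing libraries, against 52.8 and 49.5 in the wild type libraries, from 42 to 75 whole reads a library. Its log2 fold change was 0.02, and at this depth the limits of 0.653-fold and 1.57-fold leave a sizeable change in either direction undetectable.

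Of the 9 genes, 6 lay above and 3 below 0, with a median log2 fold change of 0.03, beside a median of 0.0054 over all tested genes. The overexpressing and wild type libraries did not overlap for Pcyt1a, Chpt1 and Pcyt2, 3 of 9 genes, and they did not overlap for 39.1% of all tested genes. Apart from Pcyt1a and Pemt, the 95% limits of the fold changes lay within 0.703-fold and 1.38-fold, so a rise the size of that of Pcyt1a was outside the limits of each of these 7 genes. The limits of Pemt were wider, but their upper end of 1.57-fold also lay below the 2.79-fold of Pcyt1a. The smallest limma adjusted p of any gene but Pcyt1a was 0.447 over all settings tried, in the fit with the replicate number as a block.

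Levels of different genes were set side by side as normalised reads per kilobase of merged annotated exons. In overexpressing cells Pcyt1a had the highest level of the 9 genes, 863 and 875 normalised reads per kilobase, followed by Etnk1 at 550 and 525, Chkb at 454 and 411 and Pcyt2 at 436 and 355. In wild type cells Etnk1 came first at 543 and 446, then Pcyt2 at 461 and 459, Chkb at 471 and 409, Cept1 at 340 and 364, Pcyt1b at 344 and 348, and Pcyt1a at 323 and 300. The first 3 of that order did not differ beyond their spread, nor did Cept1 and Pcyt1b. By merged exons, Chka, Chpt1 and Pemt had the lowest levels in both groups, with Chka at 190 and 207 in overexpressing cells and 196 and 158 in wild type cells, Chpt1 at 188 and 191 and at 169 and 157, and Pemt at 23.3 and 26.0 and at 25.1 and 23.5. Pcyt1a made up 25.2% and 26.7% of the summed level of the 9 genes in the overexpressing libraries, against 11.2% and 11.3% in the wild type libraries. Of the 2 choline cytidylyl transferase genes together it made up 68.0% and 74.0%, against 48.4% and 46.3%, by merged exons. By the longest transcript, the wild type mean of Pcyt1a was above that of Pcyt1b, at 482 against 379. Which of the 2 made up more in wild type cells therefore depends on the length used. With the longest annotated transcript as the length, Pcyt1a was again the highest of the 9 in overexpressing cells but number 4 in wild type cells, where merged exons had put it at number 6, so its place in wild type cells depends on which transcripts the cells make, which the table does not hold. Chka also moved with the length used: by the longest transcript it was number 5 in both groups, at 512 and 458 in overexpressing and wild type means, above Pcyt1b at 391 and 379 and Cept1 at 385 and 389.

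**Figure D3:**
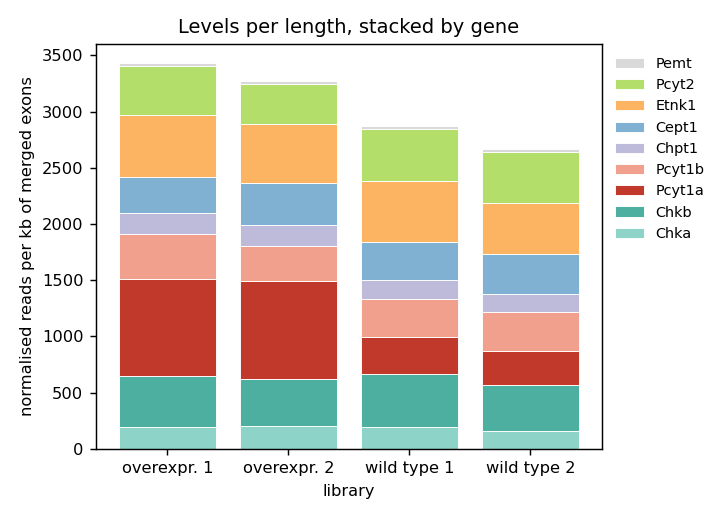
Normalised reads per kilobase of merged exons for the 9 genes, stacked, in each of the 4 libraries. The dark red Pcyt1a block is 863 and 875 high in the overexpressing libraries and 323 and 300 in the wild type libraries.

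Pcyt1a lies on chromosome 16, whose 448 tested genes had values shifted upwards in the overexpressing cells, with a median of 0.17 on the log2 scale, and 80.9% of the 350 with a mean of at least 100 normalised reads lay above 0, beside 51.3% of all tested genes. The 3 tested genes before Pcyt1a in the annotation were Ubxn7, Gm20056 and Tctex1d2, and the 3 after it were Tfrc, Tnk2 and Tnk2os. Tfrc, the transferrin receptor gene, had 5482 and 6005 normalised reads in the overexpressing libraries, against 4629 and 4778 in the wild type libraries (log2 fold change 0.29). Tctex1d2, a dynein light chain gene, had 1696 and 1475 against 1183 and 1436 (0.28). Ubxn7, a cofactor of the p97 ATPase, stood at 0.31, the tyrosine kinase gene Tnk2 at 0.21 and its antisense gene Tnk2os at 0.35, while Gm20056 had under 16 normalised reads in every library and stood at -0.47.

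None of the 20 nearest tested genes, 10 on each side, was called with limma. With 0.193% of all tested genes called, that count is near the background and says nothing about the neighbours. Of the 20, 18 lay above 0, with a median of 0.24 and a highest value of 0.96 in Fyttd1, an mRNA export factor. That value rested on overexpression replicate 1, since Fyttd1 had 4298 and 1896 normalised reads in the overexpressing libraries, against 1543 and 1388 in the wild type libraries. Pcyt1a had the largest log2 fold change of the 350 more abundant genes of the chromosome, with Dppa2 next at 1.04. It was the 1 called gene of the 448, a share near the 0.193% of all tested genes. Pcyt1a had been chosen for being called. With the median of each chromosome removed its log2 fold change was 1.31, and with the median of its 20 nearest genes of at least 100 normalised reads removed, 0.25, it was 1.23 (limma adjusted p = 0.00565). Slc51a, which lies on the opposite strand and shares 567 exon bases with Pcyt1a, had 5 and 2.92 normalised reads in the overexpressing libraries and 0 in both wild type libraries, too few to have been tested. Whether those reads belong to Pcyt1a or to Slc51a cannot be told, since the use of strand is not given.

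**Figure D4:**
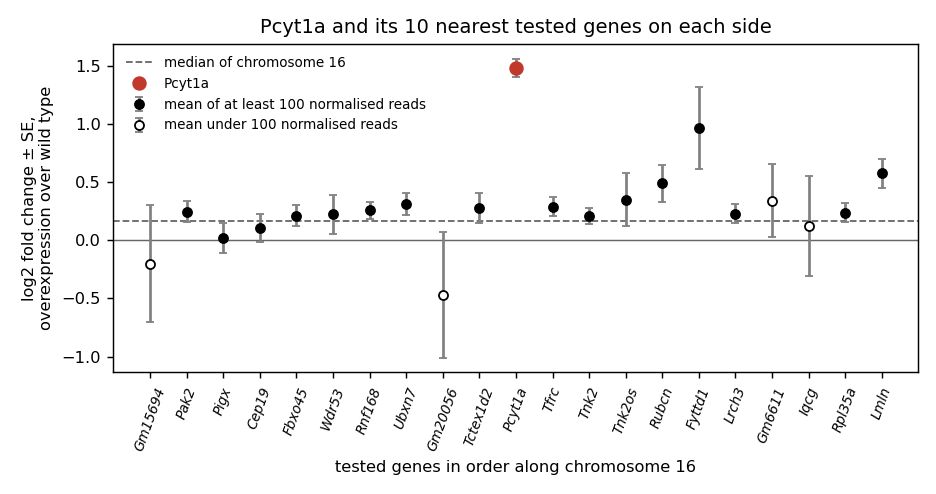
Log2 fold changes ± SE of Pcyt1a (red) and the 10 nearest tested genes on each side, in their order along chromosome 16. The dashed line is the chromosome median of 0.17 and open circles are genes with a mean under 100 normalised reads. The neighbours lie mostly between 0 and 0.5 and Pcyt1a lies at 1.48.

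The genes whose values over the 4 libraries were nearest to those of Pcyt1a were sought among 11649 other tested genes with a mean of at least 100 normalised reads, as the Euclidean distance between log2 values centred on each gene's mean. The nearest was Slc36a1, a lysosomal amino acid transporter, at a distance of 0.160 (log2 fold change 1.42). Papss2, which makes the sulfate donor PAPS, followed at 0.191 (1.39), Tnfaip1, an adaptor of a cullin ligase, at 0.273 (1.31), Tmem154 at 0.288 (1.20) and Plxnb1, a semaphorin receptor, at 0.299 (1.20). Slc36a1 and Tnfaip1 were called. Papss2, Tmem154 and Plxnb1 were not (limma adjusted p = 0.0765, 0.0782 and 0.0583). With 4 libraries in 2 groups, this likeness says only that the 2 groups differ by a similar amount with close replicates.

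Genes of the neighbouring steps of phospholipid metabolism were taken as 11 lists of 69 genes, of which 62 were in the table and 54 were tested. None of the 54 was called with limma in either direction. With 0.193% of all tested genes called, that count is near the background. Of the 54, 31 lay above 0 and 23 below, and their median log2 fold change was 0.02, beside 0.0054 for all tested genes. At an unadjusted p under 0.05 there were 3 of them, Sardh, Chdh and Plpp3, all lower in the overexpressing cells, beside 7.92% of all tested genes, and voom on the whole reads also called 0. Groups did not overlap for 23 of the 54 (42.6%), beside 39.1% of all tested genes, a share near the background.

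The substrates of the route enter through choline transporters and come from diacylglycerol. Slc44a1, the ubiquitous choline transporter, had 5942 and 5290 normalised reads in the overexpressing libraries, against 5333 and 4653 in the wild type libraries (log2 fold change 0.17, limma adjusted p = 0.729), and Slc44a2 stood at 0.06. The other 3 uptake genes of the list in the table were too low to test. Among 13 tested genes that supply phosphatidic acid and diacylglycerol, 6 lay above and 7 below 0 (median -0.0084). Plpp3, a lipid phosphate phosphatase, had 562 and 540 normalised reads in the overexpressing libraries, against 695 and 651 in the wild type libraries (-0.29, limma adjusted p = 0.594). Agpat1, an acyltransferase that makes phosphatidic acid, stood at -0.18 (limma adjusted p = 0.662). The diacylglycerol acyltransferases that draw diacylglycerol into triacylglycerol, Dgat1 and Dgat2, stood at 0.025 and 0.24.

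On the ethanolamine side, Selenoi, the ethanolaminephosphotransferase, had 1310 and 639 normalised reads in the overexpressing libraries, against 1136 and 1279 in the wild type libraries, so its log2 fold change of -0.40 rested on the low value of overexpression replicate 2. Phospho1, a phosphatase of phosphocholine and phosphoethanolamine, stood at 0.26 with 344 and 187 against 209 and 214 normalised reads. The 3 genes of phosphatidylserine synthesis and decarboxylation had log2 fold changes between -0.046 and 0.070, with Ptdss2 at 0.070 and Ptdss1 at -0.046. In the CDP-diacylglycerol route, the competing use of phosphatidic acid, Cds2, a CDP-diacylglycerol synthase gene, had 4364 and 3834 normalised reads in the overexpressing libraries, against 1871 and 3638 in the wild type libraries. Its log2 fold change of 0.65 (limma adjusted p = 0.659) was carried by wild type replicate 1, which was about as far from wild type replicate 2 as from the overexpressing libraries. Ptpmt1, a phosphatase of cardiolipin synthesis, stood at -0.20.

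Genes that remodel, use or break down phosphatidylcholine showed small differences. Of 9 tested breakdown genes 7 lay above 0 (median 0.081), with Gpcpd1, a glycerophosphocholine phosphodiesterase, at 0.18 and the phospholipase D gene Pld2 at 0.15. Of 6 reacylation genes 4 lay above 0 (median 0.068), with Lpcat2 at 0.60 from 61.0 and 38.7 normalised reads against 47.8 and 21.1, and Lpgat1 at 0.087. The 3 sphingomyelin synthase family genes all lay above 0, with Samd8 at 0.091 and Sgms1 at 0.20. Of 5 phosphatidylcholine and phosphatidylinositol transfer genes 4 lay below 0 (median -0.083), with Stard10 at -0.31 and Pitpnb at -0.082. None of these genes reached a limma adjusted p below 0.684.

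The lowest adjusted p among the 54 genes was that of Sardh, sarcosine dehydrogenase, a mitochondrial enzyme at the end of choline breakdown. It had 1105 and 1069 normalised reads in the overexpressing libraries, against 1625 and 1524 in the wild type libraries (log2 fold change -0.53, SE 0.0915, limma adjusted p = 0.160). The groups were well apart and the replicates close, but the difference did not pass over all genes. Chdh, choline dehydrogenase, which starts the oxidation of choline to betaine, had 9 and 3.65 normalised reads in the overexpressing libraries, against 39.0 and 26.3 in the wild type libraries (log2 fold change -2.28, SE 0.564, limma adjusted p = 0.362). Both lay lower in the overexpressing libraries, while Aldh7a1, the third tested gene of that list, stood at 0.06.

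**Figure D5:**
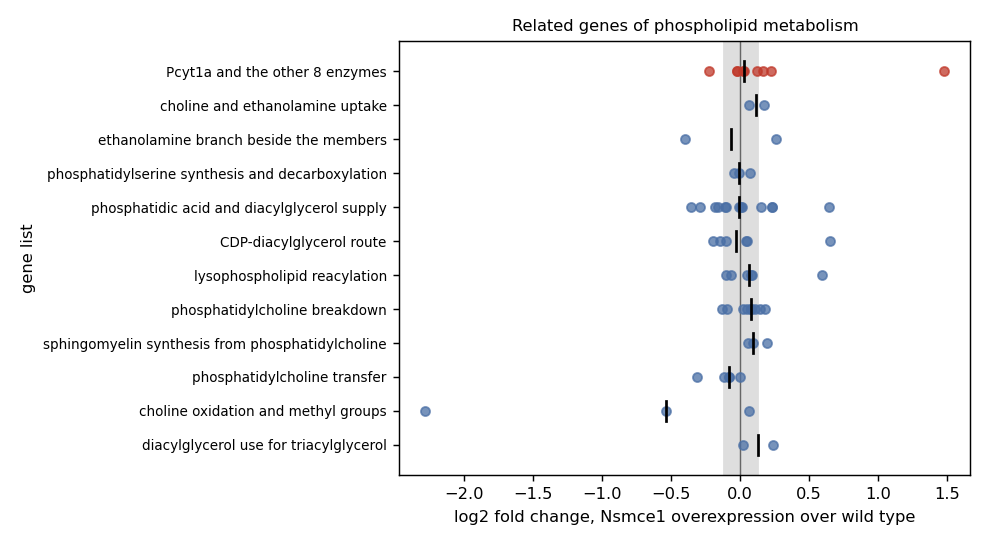
Log2 fold changes of the 9 genes (red, top row) and of the 54 tested related genes (blue) in 11 lists, with black bars at the medians. The grey band is the interquartile range of all tested genes. Pcyt1a lies alone at 1.48, Chdh at -2.28 has few reads, and most other points lie between -0.5 and 0.5.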

How the data were processed

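Per the labels' protocols, Trizol was used to harvest RNA, TruSeq to make libraries and BGISEQ-500 to sequence them. HISAT, Cufflinks and mm9 are named in the submitters' processing notes, while the counting method and its use of strand are not stated there. The authors deposited log2 values of normalised read counts plus 1. With the log2 undone, 100% of values in each library were whole multiples of 1 step within 0.001 read, which gave the whole reads.

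Genes with a mean of at least 10 normalised reads were tested. limma 3.58.1 (R 4.3.3) with a mean-variance trend was fitted to the deposited log2 values of all 4 libraries with group as the only term. P-values are two-sided, Benjamini-Hochberg adjusted over all tested genes and called below 0.05. A fold change refers to log2(value + 1), which understates the change of low genes, and limits are 95% intervals. The steps were also run on simulated reads without any shift of whole chromosomes, unlike these data, so that run does not bear on the calls. Alternatives covered pseudocount, filter, scaling, variance model, voom, block, chromosome medians and left-out libraries. Chromosome, gene order, overlap and length came from GENCODE M21 (GRCm38) by identifier. As the notes name another build, gene coordinates are not given.

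The members, lists and tests were chosen with earlier results of these data known. Named genes are the members, the 2 genes with the smallest p of each related list (none was called), the 3 nearest tested genes on each side of Pcyt1a, the 5 genes with the most similar values, and Nsmce1. Fyttd1, Dppa2, Slc51a, C730034F03Rik and Aldh7a1 were named after their values were seen. So were the other genes that overlap members, and the marker genes given from the fixed marker lists.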

Additional observations from a re-analysis of the deposited data

How the results depend on the processing

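The log2 fold change of Pcyt1a stayed between 1.23 and 1.53 under 17 alternatives and passed the threshold in 14 of them. It missed it with limma without a trend (1.48, adjusted p = 0.113), where 0 of the 9 genes was called, and without either wild type library (1.53 and 1.43, the highest and lowest of the 4 fits that leave out a library, over which 0 to 1 of the 9 genes were called). The lone library left is then assumed to vary like those of the other group. The number of called genes, 30, was 16 with no filter, 18 with quantile normalization, 9 without a trend, 72 with robust variances, 60 with the replicate block and 19 with regional medians removed, the alternative chosen after seeing the data, as was the longest transcript as length. It ran from 2 without wild type replicate 1 to 75 without overexpression replicate 2. Replicate numbers pair nothing here: deviations of same-numbered libraries correlated with r = 0.0068, and the block changed no call among the 9 genes. The sign of 5 uncalled genes turned when 1 library was left out: Chkb (-0.13 to 0.077), Pcyt1b (-0.17 to 0.23), Cept1 (-0.14 to 0.095), Etnk1 (-0.017 to 0.27) and Pemt (-0.060 to 0.097). In the 13 alternatives that kept all 4 libraries, the related lipid genes called stayed at 0, near the background. The fits that leave out a library were set aside for this count only because they leave 1 library in a group. In the main fit 0.193% of all tested genes were called. Depth limits Pemt and Chdh.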
